A study of Mus musculus with 2 samples.

Results

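Blood vessels of the calf muscle were followed through 38 genes of endothelial cells, pericytes and smooth muscle in long-read RNA sequencing of the mouse gastrocnemius. The genes were chosen by name: a read was counted for a gene when its transcript model carried that gene's symbol in the deposited table of either library. Reads of all transcript classes were summed, and 37 of the 38 genes had reads in both libraries, out of 15622 annotated genes with at least 1 read. The tissue came from 25-day-old male mice of strain B6CASTF1/J, a first-generation cross of C57BL/6J with CAST/EiJ mice, with no treatment named in the labels. The series holds 1 group with 2 biological replicates, made from 2 µg of RNA each. The labels name separate animals but point to 1 donor record, so spread between the libraries may be in part technical. Whole muscle was used, so that fewer cells of a type and less RNA per cell cannot be told apart.

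A muscle capillary is a tube of endothelial cells held together by adherens and tight junctions and wrapped by pericytes, while arterioles carry a coat of contractile smooth muscle. Muscle fibres release vascular endothelial growth factors (VEGF), which endothelial cells bind through tyrosine kinase receptors. Tek, the angiopoietin receptor, and Tie1, an orphan receptor that modulates angiopoietin signalling, help keep mature vessels stable. Transcription factors that respond to blood flow and to oxygen set the endothelial programme.

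Several of these genes are known for splice forms that change what the protein does, and a long read shows the exons of 1 molecule together. The alternative stretches that the reads below distinguish are shown first. Each is 5′ to 3′ on the sense strand, from the GENCODE M21 transcripts of build mm10, with the alternative stretch in capitals and the adjoining transcript bases in lower case. Exons are numbered as is usual for these genes. In Vegfa, on the minus strand of chromosome 17, exon 6 is coding sequence at chr17:46022277-46022348 and exon 7 is coding sequence at chr17:46020991-46021122. Exon 6 and exon 7 code for the parts of the growth factor that bind heparan sulphate. In Vegfb, on the minus strand of chromosome 19, a coding stretch of 101 bases at chr19:6985496-6985596 is kept or dropped by the choice of acceptor, and since 101 is not a multiple of 3 it changes the reading frame that follows. In Flt1, on the minus strand of chromosome 5, the transcript of the soluble receptor reads on past a splice donor into 92 coding bases at chr5:147639133-147639224.
Vegfa exon 6: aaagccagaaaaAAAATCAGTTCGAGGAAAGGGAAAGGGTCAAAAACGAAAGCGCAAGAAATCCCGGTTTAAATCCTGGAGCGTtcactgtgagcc
Vegfa exon 7: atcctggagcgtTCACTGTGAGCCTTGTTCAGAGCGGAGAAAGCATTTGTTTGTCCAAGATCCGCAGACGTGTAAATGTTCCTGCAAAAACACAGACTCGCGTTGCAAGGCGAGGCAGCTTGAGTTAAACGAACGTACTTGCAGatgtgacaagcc
Vegfb extra stretch: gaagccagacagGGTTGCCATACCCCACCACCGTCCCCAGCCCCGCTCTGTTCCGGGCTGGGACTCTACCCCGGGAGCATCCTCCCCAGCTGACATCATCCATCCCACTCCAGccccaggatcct
Flt1 soluble tail: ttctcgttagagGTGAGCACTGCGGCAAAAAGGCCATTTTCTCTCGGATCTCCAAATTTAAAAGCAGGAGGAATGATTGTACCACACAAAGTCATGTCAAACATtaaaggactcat

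The libraries held 1215785 reads in annotated genes in replicate 1 and 1549606 in replicate 2, of 1292409 and 1703457 reads in all. CPM here means reads per 1000000 gene-assigned reads of the library, with no division by length because each long read is counted once. It is not a length-free count of molecules, since the ratio between the libraries went with transcript length (below). An order of levels between genes is therefore an order of reads, not of molecules. A gene without reads could stand at up to 2.47 CPM in the first library and 1.94 CPM in the second (3 counts). The 6 skeletal muscle markers together stood at 189981 and 181820 CPM, which fits the labelled tissue, and the 38 vascular genes together at 1070 and 785 CPM. Those sums rest on 1301 and 1216 reads. For each gene, its reads and all remaining gene reads of the libraries were set in a two-sided Fisher exact test, adjusted by Benjamini-Hochberg over the 8692 genes with 10 or more reads, at a threshold of 0.05. Such a test compares 2 libraries and covers counting error only, and 35 of the 38 genes had enough reads for it.

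By that test 4 vascular genes were higher in replicate 2, 11 were lower and 20 did not pass the threshold. Over all genes tested 43.3% passed in either direction, 17.0% higher and 26.3% lower. The share of the vascular genes that passed was therefore near that of genes at large. The median log2 ratio of CPM + 1, replicate 2 over replicate 1, was -0.69 for the 35 genes and -0.27 for all genes tested. The 3 genes under 10 reads were Notch3, Cnn1 and Apold1. With TMM or DESeq2 size factors the median of all genes moved up by 0.25 or 0.28 on the log2 scale. The counts then became 5 higher and 7 lower under either scaling, so that the higher genes made up 41.7% of those called against 26.7% without it. Over all genes 40.9% passed with TMM and 40.7% with DESeq2 size factors. The Fisher test allows for no spread between animals. With edgeR's exact test and an assumed coefficient of variation of 0.2, Epas1, Rgs5 and Rasip1 were called, all lower (15.5% of all genes passed), and with 0.4 no vascular gene was (0.0920% of all genes).

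**Figure D1:**
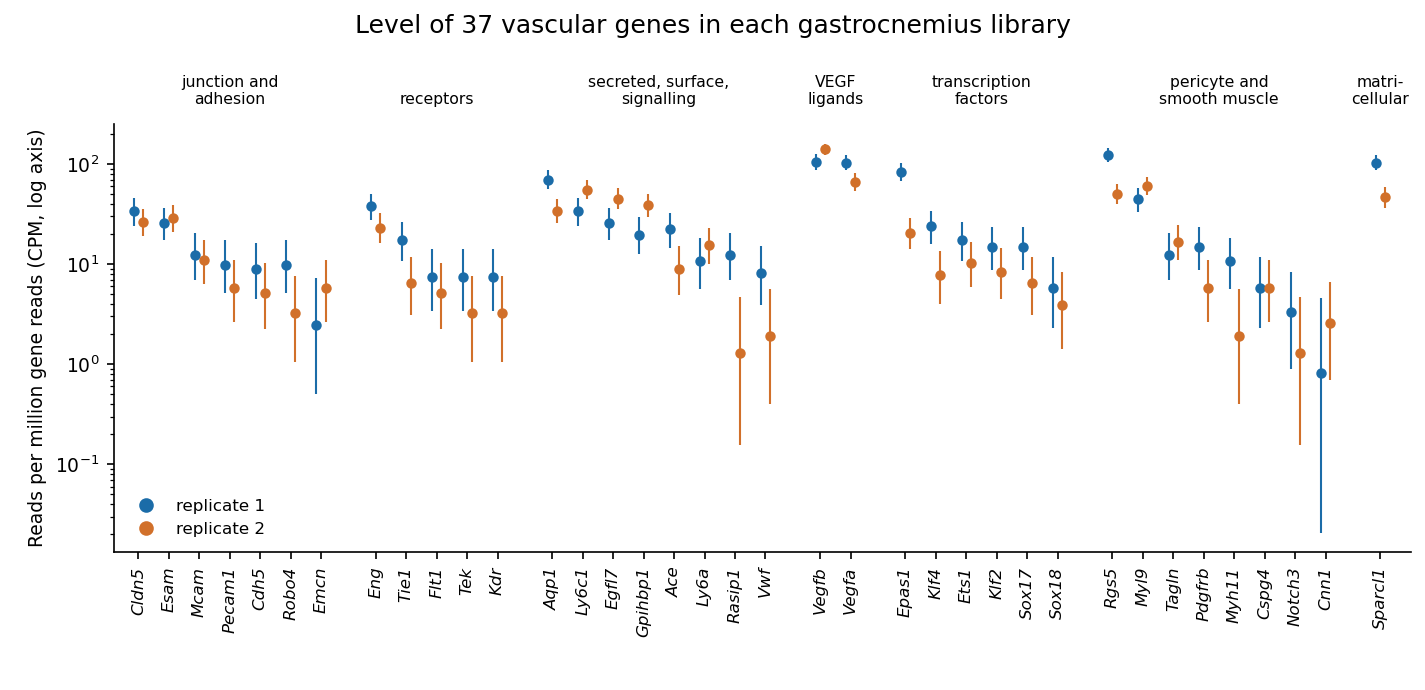
Level of the 37 vascular genes with reads, in CPM on a log axis, by role and in order of mean level. Points are the libraries (blue, replicate 1; orange, replicate 2) and bars are exact 95% intervals that cover counting error only; Apold1, with no read, is not drawn. Vegfb, Rgs5, Vegfa and Sparcl1 have the highest means, and Epas1 shows a wide gap between its points.

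Vegfb and Vegfa, the growth factor genes, were among the most-read vascular genes. Vegfb (chr19:6982473-6987651, minus strand), a ligand of Flt1 abundant in heart and muscle, was read 128 times in replicate 1 and 217 times in replicate 2, or 105 and 140.0 CPM. Its log2 ratio was 0.41 ± 0.16 (counting error), higher in replicate 2 with a Fisher exact adjusted p of 0.0275, and counted on annotated transcripts alone it did not pass, at 0.221. Vegfa (chr17:46016993-46032369, minus strand), the main driver of capillary growth, was read 126 and 103 times, or 104 and 66.5 CPM. Its log2 ratio was -0.63 ± 0.19, lower in replicate 2 with a Fisher exact adjusted p of 0.00309. On annotated transcripts alone the Vegfa log2 ratio was -2.32, with an adjusted p of 2.63e-16. The 2 genes thus differed in opposite directions. Their sum was 208.9 and 206.5 CPM with all reads counted, 259 and 182 CPM on annotated transcripts alone and 206.8 and 167.2 CPM on spliced models alone, so they were not near-equal under every way of counting. The Vegfa difference no longer passed under TMM, with an adjusted p of 0.144, or under DESeq2 size factors, with an adjusted p of 0.181.

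The reads of both ligands were divided by splice form. Of 111 Vegfa reads in replicate 1 that spanned the exons before and after the alternative pair, 91 held exon 7 alone, which is 82.0% (95% interval 73.6 to 88.6). Both exons were present in 15 reads (13.5%, 7.77 to 21.3) and neither in 5 (4.50%, 1.48 to 10.2). In replicate 2 only 27 reads spanned the region. Exon 7 alone was found in 18 of them (66.7%, 46.0 to 83.5), both exons in 7 (25.9%, 11.1 to 46.3) and neither in 2 (7.41%, 0.910 to 24.3). The order of the 3 forms was the same in both libraries, and the intervals of each form overlapped. These forms correspond to the intermediate, the long matrix-bound and the short diffusible protein. No read held exon 6 without exon 7, which allows up to 3.27% of reads in replicate 1 by the exact interval and 12.8% in replicate 2.

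Vegfb was a mixture of forms in both libraries. The stretch of 101 bases was kept in 39 of 119 reads across that intron in replicate 1 (32.8%, 24.4 to 42.0) and in 57 of 194 in replicate 2 (29.4%, 23.1 to 36.3). The intervals overlapped. The annotated transcript without the stretch codes for the form that binds heparan sulphate and was read 72 and 122 times. The one that keeps it codes for the freely diffusible form and was read 33 and 50 times. The share of the leading transcript was then tested, leaving incomplete and genomic models out, in every gene with at least 20 remaining reads in each library. None of the 9 vascular genes in that test passed (Fisher exact test, Benjamini-Hochberg adjustment over 2793 genes, of which 2.43% passed), and 1, Egfl7, had an unadjusted p under 0.05. The leading Egfl7 model was an annotated retained-intron transcript with 1 exon, at 6 of 30 such reads in replicate 1 and 29 of 65 in replicate 2. It held all single-exon reads of Egfl7. The leading Vegfa transcript, which has exon 7 alone, held 77 of 117 such reads in replicate 1 and 17 of 29 in replicate 2. That of Vegfb, without the stretch, held 72 of 116 and 122 of 187.

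**Figure D2:**
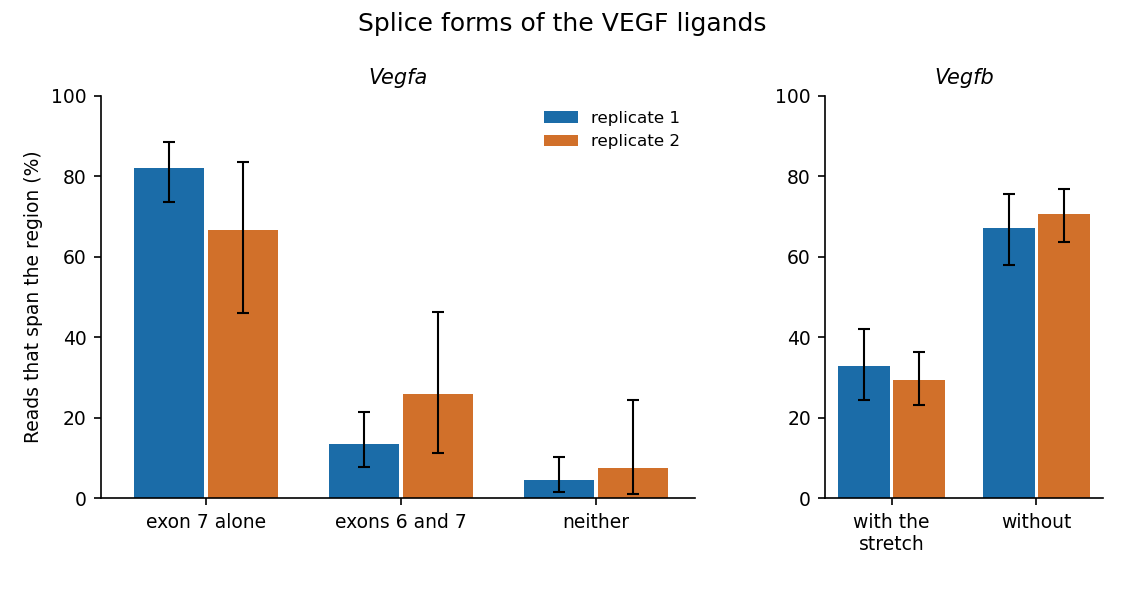
Share of reads on each splice form of Vegfa (left) and Vegfb (right), in percent of the reads that span the alternative region. Bars are the libraries (blue, replicate 1; orange, replicate 2) with exact 95% intervals for counting error; exon 7 alone leads in Vegfa, at 82.0% and 66.7%, and about the same share of Vegfb reads keeps the 101-base stretch in both libraries.

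Among the receptors, Eng, an auxiliary receptor for transforming growth factor beta ligands, had the most reads, with 46 in replicate 1 and 36 in replicate 2, or 37.8 and 23.2 CPM. Tie1, an orphan receptor that modulates angiopoietin signalling, was read 21 and 10 times, or 17.3 and 6.45 CPM. Tie1 was the 1 receptor of 5 that passed the test, where 43.3% of all genes did, with a log2 ratio of -1.29 ± 0.49 and a Fisher exact adjusted p of 0.0266. With TMM its adjusted p was 0.0997. The VEGF receptors were near the limit of detection. Kdr, the main signalling receptor, was read 9 and 5 times, or 7.40 and 3.23 CPM. Flt1, which binds VEGF strongly and signals weakly, was read 9 and 8 times, or 7.40 and 5.16 CPM. Tek, the angiopoietin receptor, was read 9 and 5 times, or 7.40 and 3.23 CPM. At this depth the intervals of Kdr, Flt1 and Tek overlapped in each library, so no order among them was detectable. The ligands' sum of 208.9 and 206.5 CPM stood beside a sum of 77.3 and 41.3 CPM for the 5 receptors. Only Kdr and Flt1 of the 5 are VEGF receptors, and Eng made up 37.8 and 23.2 CPM of the receptor sum. The sums compare reads of transcripts of unlike length, not molecules.

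The Flt1 reads were few, but most of the spliced ones named a form. The annotated transcript of 13 exons that ends in the soluble tail held 3 reads in replicate 1 and 2 in replicate 2. Chains of 29 or more exons, close to the 30 of the membrane receptor, held 2 reads and 0. The remaining reads were 2 other spliced reads in replicate 1, and 2 and 6 single-exon reads that name no form. Soluble Flt1 is a decoy that binds VEGF without signalling, and its transcript was read in both libraries. The near-complete receptor chain was read in replicate 1 alone, but a count of 0 allows up to 3 reads. A difference between the libraries in that chain was thus not detectable at this depth. Eng showed a pair of acceptors 3 bases apart, and the longer form held 30 of the 40 reads on either in replicate 1 (95% interval 58.8% to 87.3%) and 12 of 17 in replicate 2 (70.6%, 44.0 to 89.7). Tek had donors 3 bases apart, with the longer form in 4 of 9 reads and 3 of 5.

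Of the 7 junction and adhesion genes none passed the test, where 43.3% of all genes did. Cldn5, the tight junction claudin of endothelium and a gene with a single exon, was read 41 times in each library, or 33.7 and 26.5 CPM. Esam, an adhesion molecule of endothelial tight junctions, was read 31 and 45 times, or 25.5 and 29.0 CPM. Mcam, an adhesion molecule shared by endothelium and pericytes, was read 15 and 17 times, or 12.3 and 11.0 CPM. These 3 genes lay within a log2 ratio of 0.34 of zero in either direction. The sign for Mcam, -0.16, turned positive under TMM (0.11) and DESeq2 (0.14), and that for Esam, 0.18, turned negative when annotated transcripts alone were counted (-0.54). Pecam1, the classical platelet and endothelial adhesion molecule, was read 12 and 9 times, or 9.87 and 5.81 CPM. Cdh5, the cadherin of endothelial adherens junctions, was read 11 and 8 times, or 9.05 and 5.16 CPM. Robo4, a guidance receptor that limits vessel leak, was read 12 and 5 times, or 9.87 and 3.23 CPM. Emcn, a sialomucin of capillary and venous endothelium, was read 3 and 9 times, or 2.47 and 5.81 CPM. Intervals overlapped between the libraries in each of the 7 genes, and the 7 together stood at 102.8 and 86.5 CPM.

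The tail of Mcam differed in its reads. An exon of 118 bases at chr9:44141275-44141392 on the plus strand codes for much of the cytoplasmic tail of the long protein form, and the short form lacks it. It is printed because reads of both kinds occurred in each library.
Mcam tail exon: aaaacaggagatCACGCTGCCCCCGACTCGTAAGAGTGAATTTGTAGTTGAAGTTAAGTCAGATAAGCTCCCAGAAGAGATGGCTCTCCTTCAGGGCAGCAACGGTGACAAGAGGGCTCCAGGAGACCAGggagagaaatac
The exon was joined to its upstream neighbour in 7 of 14 reads in replicate 1 (95% interval 23.0% to 77.0%) and in 1 of 8 in replicate 2 (12.5%, 0.316 to 52.7). The intervals overlapped, and a difference was not detectable at this depth. Robo4 used acceptors 21 bases apart, the longer form in 4 of 12 reads and 3 of 5. In Pecam1, Egfl7, Gpihbp1 and others competing junctions were also seen, and in all 36 pairs of junctions that shared 1 splice site were found in 15 of the genes, counting pairs with 10 or more reads and 3 or more on the rarer junction.

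The secreted, surface and signalling proteins of endothelium had members called in both directions. Ly6c1, a surface antigen of capillary endothelium and of some leukocytes, was read 41 times in replicate 1 and 86 times in replicate 2, or 33.7 and 55.5 CPM. Egfl7, a matrix protein secreted by endothelium, was read 31 and 70 times, or 25.5 and 45.2 CPM. Gpihbp1, which carries lipoprotein lipase to the capillary lumen, was read 24 and 60 times, or 19.7 and 38.7 CPM. All 3 were higher in replicate 2, with log2 ratios of 0.70 ± 0.27, 0.80 ± 0.30 and 0.94 ± 0.33 and Fisher exact adjusted p of 0.0243, 0.0232 and 0.0124. Aqp1, the water channel of capillaries and red cells, was read 85 and 53 times, or 69.9 and 34.2 CPM. Ace, the angiotensin-converting enzyme on the endothelial surface, was read 27 and 14 times, or 22.2 and 9.03 CPM. Rasip1, a regulator of small GTPases in the forming lumen, was read 15 and 2 times, or 12.3 and 1.29 CPM. These 3 were lower in replicate 2, with log2 ratios of -1.01 ± 0.25, -1.21 ± 0.44 and -2.54 ± 0.67 and Fisher exact adjusted p of 1.73e-04, 0.0187 and 0.00110.

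The other members of that list did not pass or had too few reads. Ly6a (Sca-1), a surface antigen of endothelium and of progenitor cells, was read 13 and 24 times, or 10.7 and 15.5 CPM. Vwf, the clotting factor stored in endothelial granules, was read 10 and 3 times, or 8.23 and 1.94 CPM, with an adjusted p of 0.0523 by the Fisher exact test. Apold1, an early-response gene of endothelium, had no read in either library. Ly6c1 has a near-identical neighbour, Ly6c2, which had 0 reads in both libraries, so how reads were shared between the copies is uncertain. Without reads on single-exon models the Egfl7 difference no longer passed, at a log2 ratio of 0.47 and an adjusted p of 0.311 (a setting chosen after the data were seen). The Ace difference no longer passed under TMM, at 0.0892. In all, 3 of the 8 tested genes of the list were higher and 3 lower, against 17.0% and 26.3% of all genes. The 3 higher genes have transcripts under 2000 nt, where 37.8% of all genes were higher and 3.86% lower. Aqp1 and Rasip1 are of at least 2000 and under 4000 nt, where 7.72% were higher and 33.1% lower. Ace is of 4000 nt or more, where 5.19% were higher and 42.2% lower. The summed level of the list was 202.3 and 201.3 CPM.

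Egfl7 also hosts a microRNA. The hairpin of miR-126a, the best-known endothelial microRNA, lies at chr2:26591357-26591429 inside an Egfl7 intron. Its mature strand is shown, from RefSeq on build GRCm38.p6, with the seed (bases 2 to 8) in capitals.
mmu-miR-126a-3p: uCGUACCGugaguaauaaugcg
In replicate 1, 23 Egfl7 reads were spliced across the hairpin and 1 held it in an exon, and in replicate 2 the numbers were 38 and 0. Another 7 and 32 reads did not reach it. The mature microRNA itself is not seen in these reads. An unannotated acceptor, 99 bases upstream of the annotated one in that region, was used in 6 of the 21 reads on either of these acceptors in replicate 1 (28.6%, 11.3 to 52.2) and in 3 of 34 in replicate 2 (8.82%, 1.86 to 23.7). The same donor was joined to another annotated acceptor, further downstream, in 2 and 4 reads. Agpat2, which overlaps Egfl7 on the opposite strand, had 9 reads in each library.

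Of the 6 transcription factors, 2 were lower in replicate 2 and none was higher, where 26.3% of all genes tested were lower and 17.0% higher. Epas1 (chr17:86753700-86833410, plus strand), the hypoxia-inducible factor HIF-2α, was read 102 times in replicate 1 and 32 times in replicate 2, or 83.9 and 20.7 CPM. Its log2 ratio was -1.97 ± 0.28, with a Fisher exact adjusted p of 9.01e-13, and its intervals did not overlap. Klf4, a factor induced by laminar flow and also found in smooth muscle, was read 29 and 12 times, or 23.9 and 7.74 CPM. Its log2 ratio was -1.51 ± 0.45, with a Fisher exact adjusted p of 0.00276. Klf2, the other flow-responsive Krüppel-like factor, was read 18 and 13 times, or 14.8 and 8.39 CPM. Ets1, an ETS factor of endothelium and lymphocytes, was read 21 and 16 times, or 17.3 and 10.3 CPM. Sox17, a factor of arterial endothelium, was read 18 and 10 times, or 14.8 and 6.45 CPM. Sox18, its relative in vascular and lymphatic development, was read 7 and 6 times, or 5.76 and 3.87 CPM. The last 4 did not pass, and all 6 had their lower value in replicate 2. The median log2 ratio of all genes tested was itself negative, at -0.27. Klf4 and Sox17 have transcripts of at least 2000 and under 4000 nt, where the median of all genes was -0.56. Epas1 and Ets1 are of 4000 nt or more, where that median was -0.93. Klf2 and Sox18 are under 2000 nt, where it was 0.52. The part of length in these 6 differences was not tested. The list summed to 160.4 and 57.4 CPM, which is a mean of 109 ± 72.8 CPM (SD, n = 2).

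Epas1 belongs to a pathway with its own list of 10 genes, which includes its partner and its oxygen sensors. Of the 6 with enough reads, 3 were lower in replicate 2 and none was higher, against 26.3% and 17.0% of all genes. The lower share over all genes went from 3.86% under 2000 nt to 42.2% at 4000 nt or more. The part of length in this list was not tested. The list summed to 401 and 242 CPM. Its 4 most-read genes were Egln1, Ppargc1a, Egln3 and Arnt. Egln1, the prolyl hydroxylase that marks HIF proteins for destruction, was read 367 and 308 times, with a log2 ratio of -0.60. Ppargc1a, a coactivator that raises Vegfa in exercised muscle, was read 41 and 20 times (-1.32). Arnt, the partner that HIF-2α needs to bind DNA, was read 25 and 9 times (-1.66). These 3 passed the test as lower. Egln3, another prolyl hydroxylase, was read 21 and 18 times and did not pass.

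The 8 mural genes comprise 4 of pericytes and 4 of the contractile apparatus. Rgs5 (chr1:169655501-169695813, plus strand), a regulator of G-protein signalling and a leading pericyte marker, was read 149 times in replicate 1 and 78 times in replicate 2, or 123 and 50.3 CPM. Its log2 ratio was -1.27 ± 0.20, with a Fisher exact adjusted p of 7.61e-10, and its intervals did not overlap. Pdgfrb, the receptor that recruits pericytes, was read 18 and 9 times, or 14.8 and 5.81 CPM. Its log2 ratio of -1.22 ± 0.52 passed narrowly, with a Fisher exact adjusted p of 0.0464, and lost that standing under TMM at 0.158, under DESeq2 scaling at 0.160 and with every gene tested at 0.0801. Cspg4 (NG2), a pericyte proteoglycan, was read 7 and 9 times, or 5.76 and 5.81 CPM. Notch3, the Notch receptor of mural cells, was read 4 and 2 times, or 3.29 and 1.29 CPM. Of the 3 pericyte genes with enough reads to test, 2 were thus lower, both with transcripts of 4000 nt or more, where 42.2% of all genes were lower and 5.19% higher.

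Among the contractile genes, Myl9, a regulatory light chain of smooth muscle myosin, was read 54 and 94 times, or 44.4 and 60.7 CPM. Its log2 ratio of 0.44 ± 0.24 had a Fisher exact adjusted p of 0.131, which became 0.00770 under TMM and 0.00598 under DESeq2 scaling. Tagln (SM22), an actin-binding protein, was read 15 and 26 times, or 12.3 and 16.8 CPM. Myh11, the smooth muscle myosin heavy chain, was read 13 and 3 times, or 10.7 and 1.94 CPM. Its log2 ratio was -1.99 ± 0.66, with a Fisher exact adjusted p of 0.0118. Cnn1, a calponin of smooth muscle, was read 1 and 4 times, or 0.823 and 2.58 CPM. Of the 3 contractile genes tested, Myh11 was the 1 that passed, and Myl9, Tagln and the untested Cnn1 had their higher value in replicate 2. Tagln overlaps Pcsk7 on the opposite strand, which had 17 and 10 reads. The 8 genes together stood at 215 and 145 CPM, a mean of 180 ± 49.1 CPM (SD, n = 2). Of the 6 tested, 3 were lower and none higher, against 26.3% and 17.0% of all genes. The 3 lower genes, Rgs5, Pdgfrb and Myh11, have transcripts of 4000 nt or more, where 42.2% were lower and 5.19% higher. Cspg4, which did not pass, is in the same class. Myl9 and Tagln are under 2000 nt, where 3.86% were lower and 37.8% higher.

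Myh11 is known for an exon of 21 bases in the motor head, present in the faster smooth muscle myosin and absent from the slower one. It lies at chr16:14248580-14248600 on the minus strand, codes for 7 residues and is printed because those forms are told apart by it.
Myh11 insert exon: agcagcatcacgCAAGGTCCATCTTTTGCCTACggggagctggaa
It was joined in 2 of the 10 reads that joined or skipped it in replicate 1 (20.0%, 2.52 to 55.6) and in the 1 read that crossed the site in replicate 2. In Myl9 a longer first exon, by 32 bases, held 6 of the 49 reads with either form in replicate 1 and 6 of 73 in replicate 2 (12.2% and 8.22%). In Pdgfrb an unannotated acceptor 3 bases downstream of the annotated one took 8 of 12 reads in replicate 1 and both reads in replicate 2. Sparcl1, a matricellular protein made by endothelial and mural cells, stands apart from these roles. It was read 126 and 72 times, or 104 and 46.5 CPM, with a log2 ratio of -1.14 ± 0.21 and a Fisher exact adjusted p of 2.90e-07, and its intervals did not overlap.

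The direction of the difference went with transcript length. Of 11 vascular genes whose longest coding transcript is under 2000 nt, 4 were higher in replicate 2 and none was lower, where 37.8% and 3.86% of all genes of that length were. Of 11 genes of at least 2000 and under 4000 nt, none was higher and 5 were lower, where 7.72% and 33.1% of all genes were. Of 13 genes of 4000 nt or more, none was higher and 6 were lower, against 5.19% and 42.2% of all. The median log2 ratios of the vascular genes in the 3 classes were 0.41, -0.71 and -1.22, and those of all genes 0.52, -0.56 and -0.93. Across the 35 vascular genes the rank correlation of the ratio with length was -0.64, and across 8193 genes tested it was -0.53. These correlations are across genes of the same 2 libraries, and genes are not independent replicates. The part of length in each single difference was not tested.

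**Figure D3:**
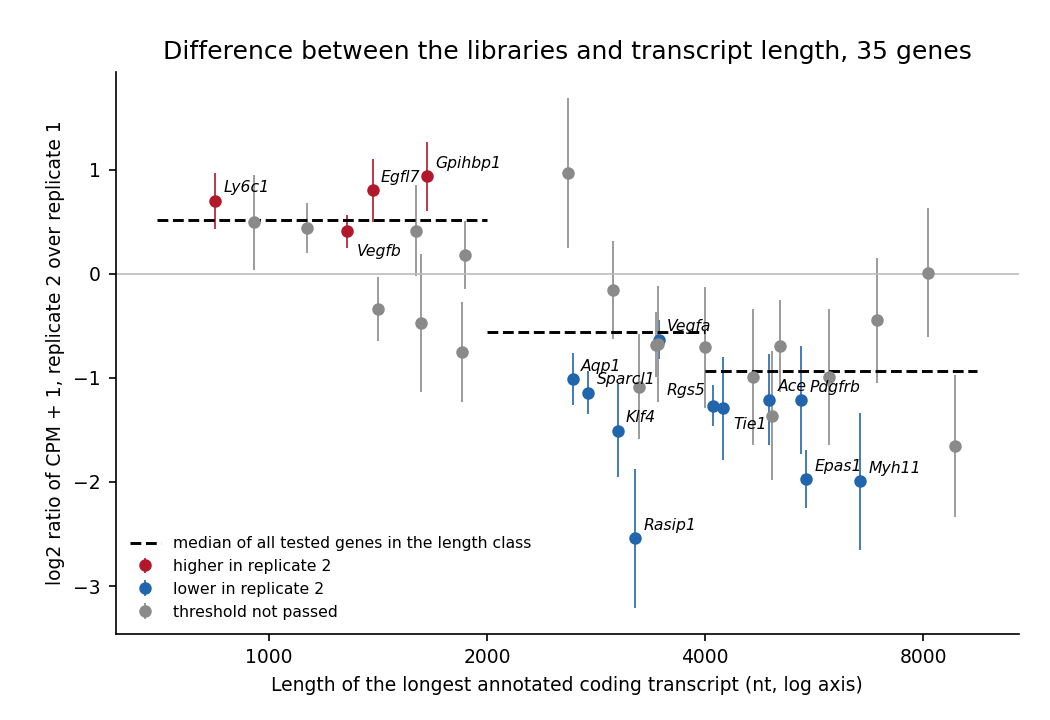
Difference between the libraries for 35 vascular genes, as the log2 ratio of CPM + 1 (replicate 2 over replicate 1), against the length of the longest annotated coding transcript on a log axis. Bars are counting errors, colours mark the result of the gene test and dashed lines give the median of all tested genes in each length class (0.52, -0.56 and -0.93); the 4 higher genes lie under 2000 nt and the 11 lower ones above it.

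The libraries also differed in how much of a molecule a read showed. Of the reads of the 36 multi-exon genes with reads in both libraries, 109 of 1260 in replicate 1 (8.65%) and 342 of 1175 in replicate 2 (29.1%) lay on models with a single exon. Over all multi-exon genes the shares were 3.42% and 11.6%. The share was higher in replicate 2 in 31 of the 36 genes, lower in 1, Ly6c1, and equal in 4. The same count over all multi-exon genes was not computed, so whether 31 of 36 is unusual is not known. Of these single-exon reads 97.2% and 97.4% overlapped the last annotated exon of the gene. Vegfa had 6 of 126 reads on such models in replicate 1 (4.76%) and 72 of 103 in replicate 2 (69.9%), the most reads of any vascular gene in replicate 2 but not in replicate 1, where Aqp1 had 37. The 72 reads lay on 1 model at chr17:46016993-46018479, at the 3′ end of the gene. Rgs5 had 16 of 149 and 33 of 78, Epas1 7 of 102 and 16 of 32, and Aqp1 37 of 85 and 39 of 53. In replicate 2, 6 Tie1 reads of 10 and 6 Klf4 reads of 12 stood on models listed at a length of 1 base, at the 3′ end of the gene. The gene counts above include all these reads.

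When spliced models alone were counted, a setting chosen after the data were seen, 3 vascular genes were higher in replicate 2 and 15 lower, against 49.3% called among all genes. Cdh5 (-1.95), Eng (-1.12), Sox17 (-1.61) and Ets1 (-1.35) then passed as lower with adjusted p of 0.0351, 0.00414, 0.0160 and 0.0460. Cspg4, whose 9 reads in replicate 2 include 8 on single-exon models, went from a log2 ratio of 0.01 to -1.82. For Vegfa the spliced level was 98.7 CPM in replicate 1 against 20.0 CPM in replicate 2.

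**Figure D4:**
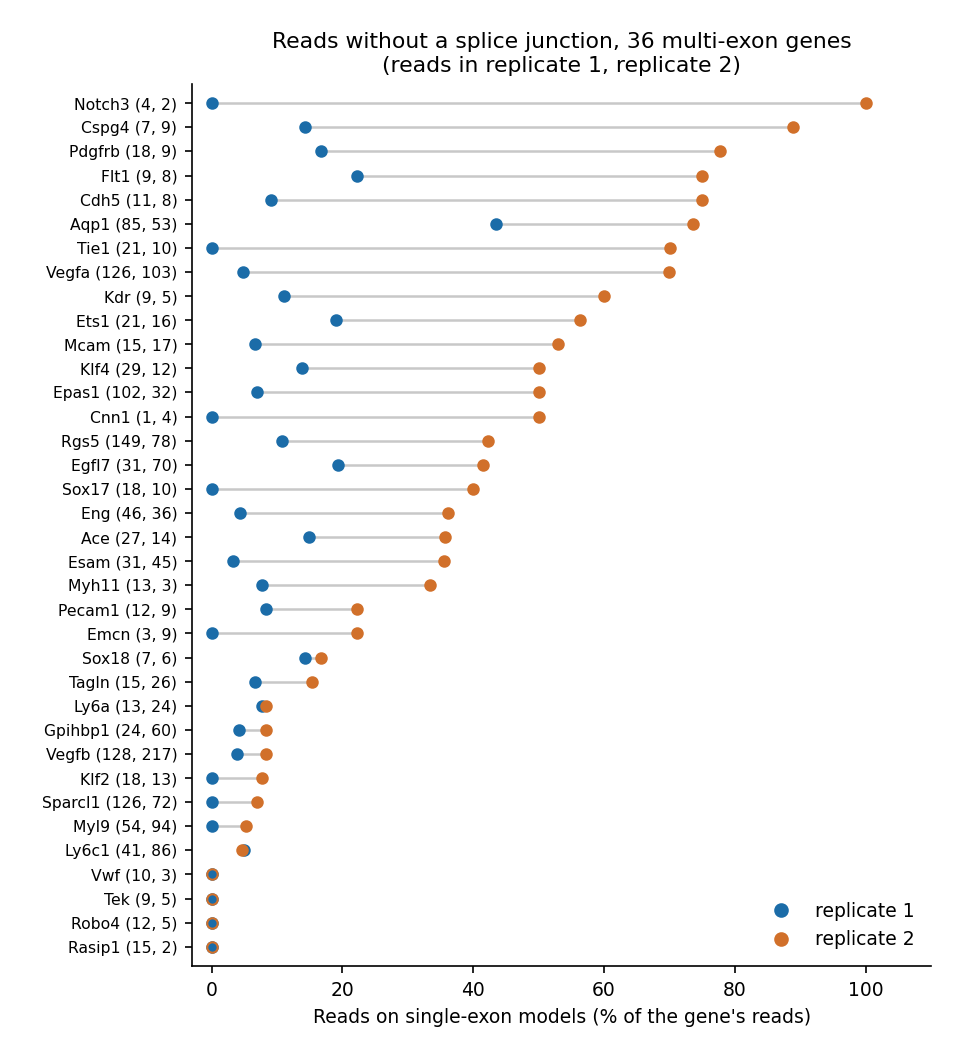
Reads without a splice junction, in percent of each gene's reads, for the 36 multi-exon vascular genes with reads in both libraries. Blue points are replicate 1 and orange points replicate 2. A ring marks values that coincide, and the reads of each library stand beside the name. The share is higher in replicate 2 in 31 of the 36 genes, among them Vegfa at 4.76% and 69.9%. The same count over all multi-exon genes was not computed.

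By class, 74.5% of the vascular reads in replicate 1 (95% interval 72.0 to 76.8) and 60.3% in replicate 2 (57.5 to 63.0) lay on annotated transcripts. The other classes are incomplete splice matches (part of an annotated intron chain), new combinations of annotated sites, chains with a new site and genomic reads. Over all genes the shares were 65.8% and 70.6%, so the vascular genes stood above the whole in replicate 1 and below it in replicate 2. Genomic reads, which are unspliced or partly spliced, made up 2.77% and 15.3% of vascular reads and 2.30% and 6.86% of all. The receptors (69.1% in replicate 1 and 32.8% in replicate 2) and the transcription factors (75.9% and 50.6%) had the lowest annotated shares of the 7 roles in replicate 2. The secreted, surface and signalling proteins were at 62.2% and 65.4%. There were 107 unannotated spliced chains that combined annotated sites in a new way or used a new site, and 12 of them, in 8 genes, were found in both libraries. The most-read of these was a Myl9 chain of 4 exons, with 6 reads in each library.

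**Figure D5:**
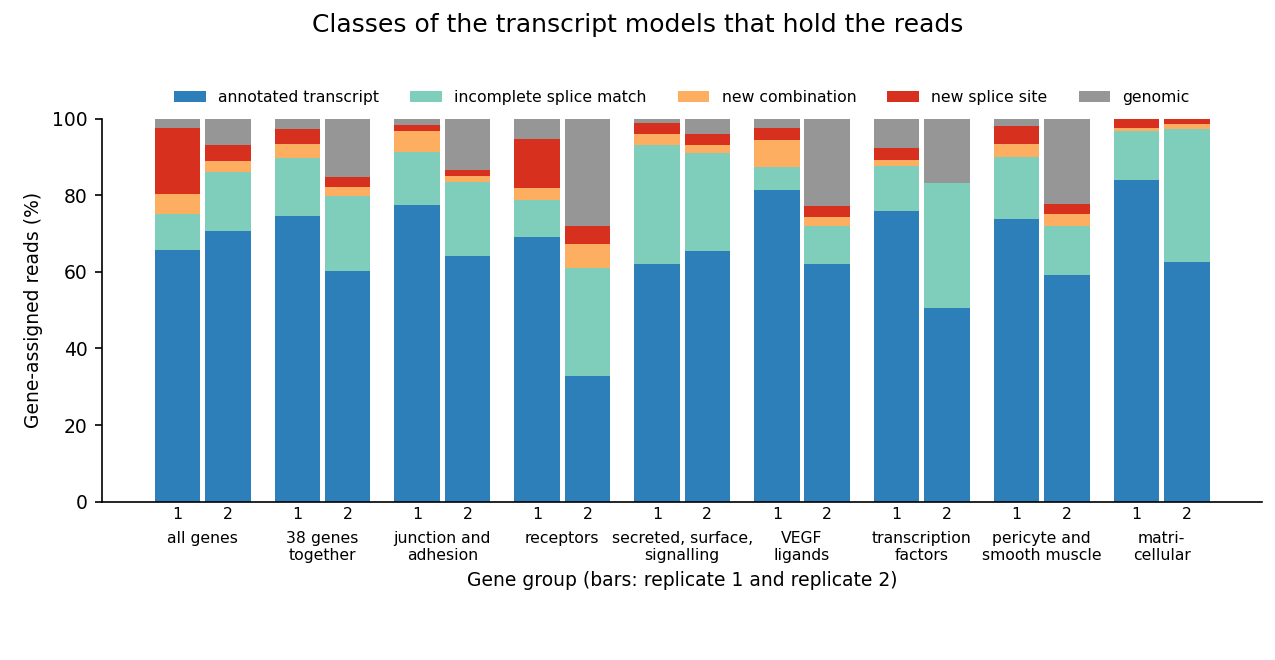
Share of reads in each class of transcript model, in percent of gene-assigned reads, for all genes, the 38 vascular genes together and each role, with replicate 1 to the left and replicate 2 to the right in each pair. The annotated share (blue) of the 38 genes is 74.5% and 60.3%, and the genomic share (grey) is 2.77% and 15.3%.

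Markers of other cell types are given beside the 17.0% of all genes that were higher and the 26.3% that were lower. Those shares went with transcript length. They were 37.8% and 3.86% for genes under 2000 nt, and 5.19% and 42.2% for genes of 4000 nt or more. The part of length in the marker differences was not tested. The 8 fibroblast markers summed to 6137 CPM in replicate 1 and to 1389 CPM in replicate 2, and 5 of 8 were lower. Lum, Pdgfra and Dpt did not pass. The 6 Schwann cell markers summed to 152 and 505 CPM, with 3 of 5 tested genes higher. The 5 erythroid markers summed to 393 and 638 CPM, with 4 of 4 tested genes higher. Blood and immune markers stood at 85.5 and 98.1 CPM, where Ptprc and Ppbp had no read. Lymphatic endothelial markers stood at 9.87 and 7.10 CPM with no read of Reln. The part of these cells in the vascular differences was not tested. A wider list of 30 other endothelial and angiogenic genes summed to 455 and 468 CPM, of which 2 of 20 tested were higher and 7 lower. Its most-read genes were Fabp4, a fatty acid carrier (76 and 272 reads, higher), Cd36, a fatty acid transporter that muscle fibres also carry (89 and 126, not past), Cav1, the caveolar coat protein (81 and 58, lower) and Cd34 (47 and 38, not past). A list of 15 other pericyte and smooth muscle genes summed to 403 and 267 CPM, with 2 of 9 tested genes higher and 4 lower. It was led by Smtnl2 (211 and 113 reads, lower), Smtn (137 and 127, lower), the smooth muscle actin Acta2 (29 and 77, higher) and the potassium channel subunit Abcc9 (59 and 9, lower), and Anpep and Myocd had no read. Whole muscle was used, so which cells gave the reads of this list was not determined.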

How the data were processed

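Long-read RNA-seq of 2 libraries of 1 group was used. The deposited counts are whole reads per transcript model, not normalised, which per the file headers were assigned by TALON to GENCODE M21 transcripts on mm10, each library separately. For the aligner, read filters and strand use, nothing is given in the sources used here. The deposited tables also list each model's class, exon number and length. For an annotated model the length is that of the annotation.

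Reads were summed per gene over the Known, incomplete splice match, new and genomic classes, and spike-ins were left out. Antisense models were not summed. CPM is per 1000000 gene reads. Fisher exact tests were run with scipy 1.17.1 on genes with 10 or more reads. Ratios used a pseudocount of 1 CPM and carry counting errors. Intervals of shares are exact Clopper-Pearson ones at 95%. For genes without reads the upper limit is that of 3 counts. All cover counting error only, since reads may be copies of 1 molecule. Junctions came from the deposited exon coordinates. Splice forms of named genes were taken from annotated transcripts. edgeR 4.0.16 and DESeq2 1.42.0 (R 4.3.3) gave the alternatives. The tests were checked on counts simulated with counting error alone. That check covers neither spread between animals nor an effect of length.

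Every one of the 38 genes is named, with the 4 most-read genes of the endothelial, pericyte and hypoxia lists. Of the transcript models of these genes only a part is given. Members and lists were chosen with earlier results of these data known. The other lists are given by their sums and, in part, by their counts of called genes and by single genes. A list of satellite cell markers is not described.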

Additional observations from a re-analysis of the deposited data

Results flagged for a closer look

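Some reads lay on the strand opposite to a vascular gene and belonged to no gene's count. Such antisense models had reads in both libraries over 11 of the 38 genes, and over 4 of them they passed in both libraries the 3 reads that a count of 0 would allow. The share over all genes was not computed, so whether these counts are unusual is not known. Over Ets1 there were 10 antisense reads in replicate 1 and 61 in replicate 2, beside 21 and 16 sense reads. In replicate 2, 48 of the 61 stood on 1 model listed at a single base near the 3′ end of the gene. Over Rgs5 there were 11 and 46 antisense reads, beside 149 and 78 sense reads, and each library held them on 1 model starting 2 bases apart in its last exon. The Rgs5 model of replicate 1 was also listed at a single base. Over Epas1 there were 5 and 24, of which 3 and 20 lay on the model at chr17:86753700-86754308, the first exon of the gene. Over Flt1 there were 4 and 19, beside 9 and 8 sense reads, with no shared leading model. The origin of these reads was not tested.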

How the results depend on the processing

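The 4 higher and 11 lower calls depended on the spread assumed between animals. With edgeR's exact test and a fixed coefficient of variation of 0.2, 0 genes were higher and 3 lower (Epas1, Rgs5 and Rasip1), and with 0.4, 0 were higher and 0 lower. The shares of all genes called were 15.5% and 0.0920%. Under TMM or DESeq2 scaling 5 were higher and 7 lower: Tie1, Ace, Vegfa and Pdgfrb lost the call and Myl9 gained one as higher. Of all genes 40.9% were called under TMM and 40.7% under DESeq2 scaling. Under the remaining settings, from 3 to 4 genes were higher and from 9 to 15 lower, while from 22.3% to 52.9% of all genes were called. Esam changed sign with annotated transcripts alone (-0.54), without incomplete and genomic models (-0.10) and with spliced models alone (-0.27), Mcam under TMM (0.11) and DESeq2 scaling (0.14), and Cspg4 with spliced models alone (-1.82). No other gene changed sign, and pseudocounts of 0.1 and 10 changed no sign. The causes were not tested, and counts on spliced models alone or without models of 1 base were chosen after seeing the data.

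The mean summed level of endothelial genes was 356 CPM, and 305 without incomplete and genomic models or 304 with spliced models alone. That of the VEGF ligands was 208, and 220.3 with annotated transcripts alone, 198 without incomplete and genomic models and 187 with spliced models alone. Counting 10 or 50 reads per library for the leading transcript left 0 genes past the threshold, with 13 and 2 tested. Leaving out a library gives the other library's sum, so endothelial genes ranged from 329 to 382 CPM, pericyte and smooth muscle genes from 145 to 215, the ligands from 206.5 to 208.9, the transcription factors from 57.4 to 160.4, and the share on annotated transcripts from 60.3% to 74.5%. No paired analysis was possible because the series holds 1 group. Of the 35 tested genes 24 had 20 or more reads, and small differences in the rest were not detectable at this depth.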
